A study of Homo sapiens with 8 samples.

Results

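Fatty acid oxidation and ketogenesis genes were followed in human hepatocellular carcinoma cells as a set of 31 genes listed by name, and 30 of them had at least 1 probe set that carried their symbol alone in the platform annotation, 85 probe sets in all among 49395 on the array. ACSL3 had no such probe set and has no value here. Of 18132 genes with a symbol of their own, 11383 were bright enough to be tested, and 29 of the members were among these. The 3 groups were Huh7.5.1 cells kept for 48 h with 10 μM CU27, a compound known here only by its code name, Huh7.5.1 cells kept for 48 h with its solvent DMSO, and Hep3B cells kept for 48 h with DMSO. Each group held 2 arrays, described as biological replicates, each from total RNA of a whole culture. Both are established lines of transformed hepatocyte origin, so neither stands for normal liver tissue.

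Cells burn fatty acids in mitochondria and, for very long or branched chains, first shorten them in peroxisomes. Acyl-CoA synthetases activate the fatty acid, the carnitine shuttle carries the acyl group across the inner mitochondrial membrane, and repeated rounds of dehydrogenation, hydration, a further dehydrogenation and thiolysis release acetyl-CoA, while electron transfer flavoprotein passes electrons to the respiratory chain. In liver much of the acetyl-CoA can leave as ketone bodies, and the nuclear receptor PPARA, activated by fatty acids, is known to drive transcription of many of these genes during fasting.

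Values are log2 signals as deposited. A gene was tested where its mean reached a floor of log2 6.11, the middle of all probe set values, in at least 1 group, and errors are standard errors from limma with 2 arrays in each group. Replicate arrays correlated at 0.991 in Huh7.5.1 CU27, 0.993 in Huh7.5.1 DMSO and 0.994 in Hep3B DMSO. RNA integrity was read from the ACTB control probe sets, whose 3′ minus 5′ signal lay at 0.98 and 1.21 for Huh7.5.1 CU27, at 0.94 and 1.06 for Huh7.5.1 DMSO and at 2.28 and 1.60 for Hep3B DMSO. At all 49395 probe sets the 4 Hep3B columns were equally spaced, within 1e-06, in the order DMSO replicate 3, DMSO replicate 2, CU27 replicate 3, CU27 replicate 2, so the values do not tell which of the 4 were measured. The Hep3B CU27 columns were left out, and the Hep3B DMSO columns were used as labelled. Of 10 hepatocyte markers, 9 were measured and all 9 reached the floor in every group. Their summed linear signal was 60500 to 77000 in Huh7.5.1 CU27, 90200 to 94100 in Huh7.5.1 DMSO and 73300 to 77700 in Hep3B DMSO. PTPRC, PECAM1, VWF and COL1A1, which mark leukocytes, endothelium and fibroblasts, were below the floor in every group. Of 6 measured leukocyte markers 2 reached the floor in CU27-treated and in DMSO-treated Huh7.5.1 cells and 1 in Hep3B. Of 6 fibroblast markers 1 did in either Huh7.5.1 group and 2 in Hep3B, and of 6 endothelial markers 1 did, in DMSO-treated Huh7.5.1 cells.

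Promoter sequence was available from RefSeq (GRCh38.p14) for 26 members, as 37 windows running 250 bases upstream to 50 bases downstream of an annotated transcription start. VNN1, CYP4A11, EHHADH, ACAA1 and ETFDH had no window and were not searched. The windows are shown because nuclear receptors of the PPAR family bind, as partners of RXR, to repeats of this kind. The direct repeat searched was AGGTCA followed by AGGTCA with 1 base of any kind between the copies. On both strands and with up to 2 mismatches, it occurred in 4 of the 37 windows (10.8%), against 1043 of 35116 windows of all genes (2.97%). An exact copy occurred in 0 of the members' windows and in 8 of all windows. A single AGGTCA on either strand, which lies within the repeat and can overlap it, occurred in 3 members' windows (8.11%) and in 13.8% of all windows. The repeat is in capitals below. FABP1 and CREB3L3, members of the PPARA program, are shown whole, FABP1 at chr2:88128013-88128312 on the minus strand and CREB3L3 at chr19:4153381-4153680 on the plus strand.
FABP1: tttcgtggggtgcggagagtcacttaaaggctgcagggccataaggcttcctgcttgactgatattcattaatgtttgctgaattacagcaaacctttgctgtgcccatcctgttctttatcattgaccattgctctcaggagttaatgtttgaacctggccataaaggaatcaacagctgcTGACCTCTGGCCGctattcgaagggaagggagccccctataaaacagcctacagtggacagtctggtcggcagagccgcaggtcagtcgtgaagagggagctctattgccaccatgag
CREB3L3: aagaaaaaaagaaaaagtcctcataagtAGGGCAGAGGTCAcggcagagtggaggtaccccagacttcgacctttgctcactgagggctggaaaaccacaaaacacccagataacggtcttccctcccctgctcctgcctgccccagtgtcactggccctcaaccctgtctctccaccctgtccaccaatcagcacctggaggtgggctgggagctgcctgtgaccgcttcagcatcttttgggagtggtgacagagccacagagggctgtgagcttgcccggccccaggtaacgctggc
In FABP1 the repeat began 68 bases upstream of the start on the opposite strand with 2 mismatches, and in CREB3L3 it began 222 bases upstream with 1 mismatch. The other 2 windows were 1 of 5 annotated starts of ACSL1, at chr4:184805504-184805803 on the minus strand, and ACAA2, at chr18:49813484-49813783 on the minus strand. Their repeats, each with 2 mismatches, are given alone.
ACSL1: TGACTTGTGCCCT
ACAA2: AGGTGAAAGGGCA
The ACSL1 repeat lay 114 bases upstream on the opposite strand and the ACAA2 repeat 76 bases upstream. A match describes these letters only. In the CU27 measurements that follow, CREB3L3 rose, FABP1 and ACSL1 fell, and ACAA2, at -0.24, did not pass the test. The part of the repeat in these values was not tested. HADHA and HADHB, the genes of the α and β subunits of the trifunctional protein, are divergent neighbours whose starts lie 307 bases apart, and their windows share 194 bases.

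**Figure D1:**
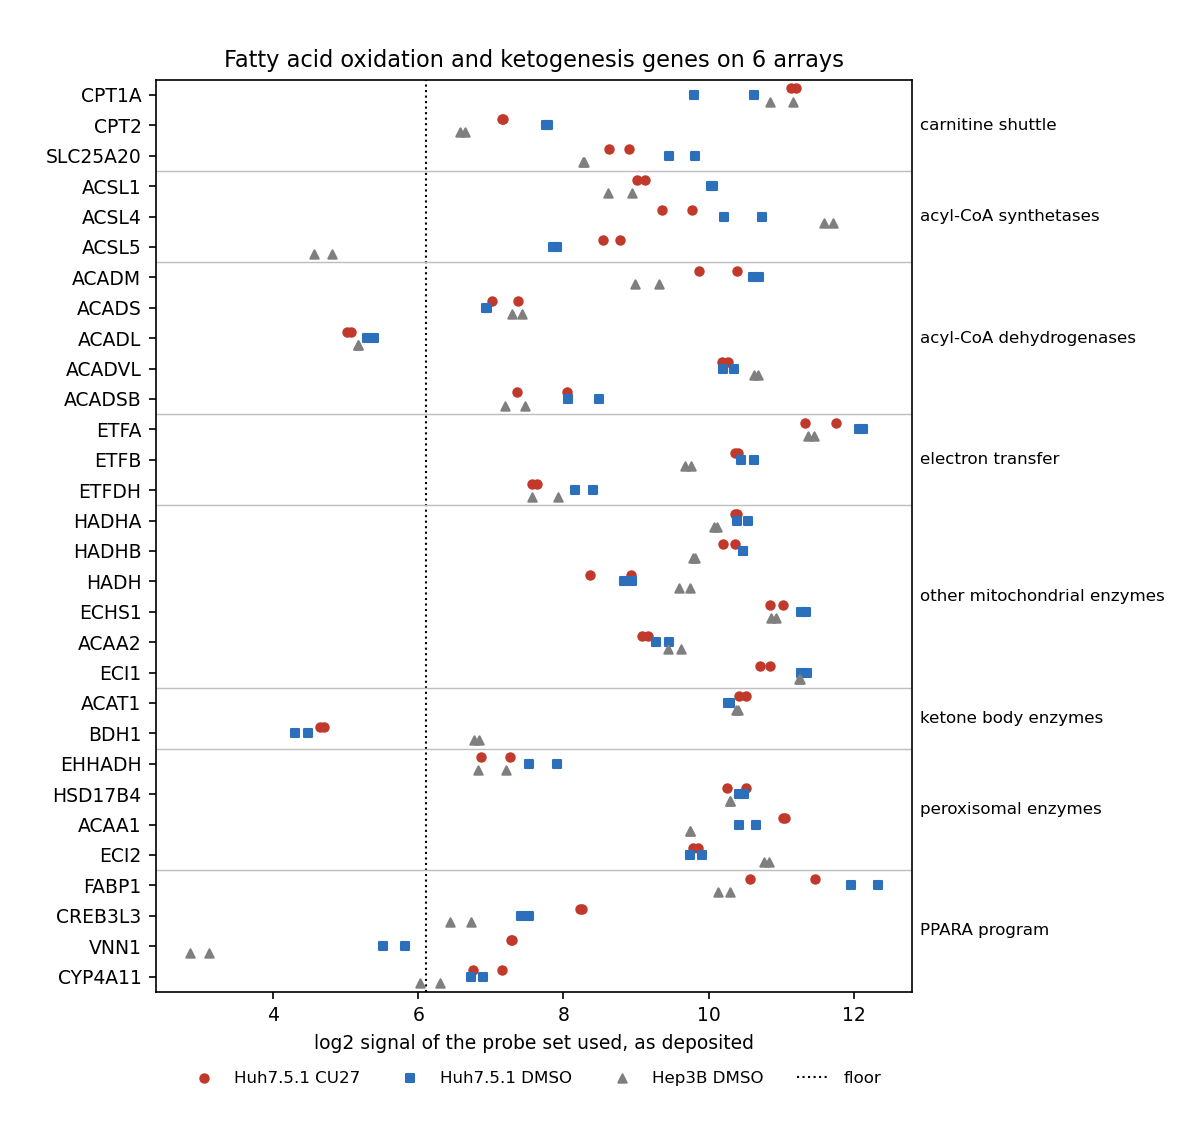
Log2 signal of the probe set used for each of the 30 measured genes (x axis) on each of the 6 arrays, by gene and role (y axis). Circles are Huh7.5.1 CU27, squares Huh7.5.1 DMSO and triangles Hep3B DMSO, and the dotted line is the floor of 6.11. ACADL lies below the floor on all 6 arrays, while ACSL5, BDH1 and VNN1 lie below it in only some groups.

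In Huh7.5.1 cells treated with CU27, mitochondrial oxidation genes mostly had lower signals than in DMSO, with CPT1A as the called exception. Of the 29 tested members 5 rose and 9 fell, 48.3% of them, where 24.7% of all tested genes were called, 12.6% higher and 12.1% lower. The median log2 difference was -0.20 over the members and 0.02 over all tested genes. In 23 of the 29 the CU27 and DMSO arrays did not overlap, against 63.8% of all tested genes. The count of 14 became 3 without DMSO replicate 2 (10.3% of members, against 7.89% of all tested genes), 7 without CU27 replicate 2 (24.1% against 13.4%) and 9 without DMSO replicate 1 (31% against 14.3%), so without DMSO replicate 2 the members' share was near that of all genes. Of the tested members 21 were lower in CU27 replicate 2 than in CU27 replicate 1, against 40.6% of all tested genes. Hepatocyte markers moved alongside: 4 of 9 fell and 0 rose (44.4%, against 24.7% of all tested genes called), with a median of -0.66. Of 6 fibroblast markers PDGFRA fell (-1.87 ± 0.29, limma adjusted p = 0.003). COL1A1, COL1A2, COL3A1, DCN and LUM were below the floor in both Huh7.5.1 groups. The summed linear signal of the 6 was 227 to 239 in Huh7.5.1 CU27 against 453 to 552 in Huh7.5.1 DMSO. PDGFRA was the brightest of them, so this sum is no trend of the list apart from it. Leukocyte markers summed to 874 to 1430 in CU27 against 1010 to 1390 in DMSO. The part of any of these in the result was not tested, and in RNA from whole cultures fewer cells with a transcript and less transcript per cell cannot be told apart.

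**Figure D2:**
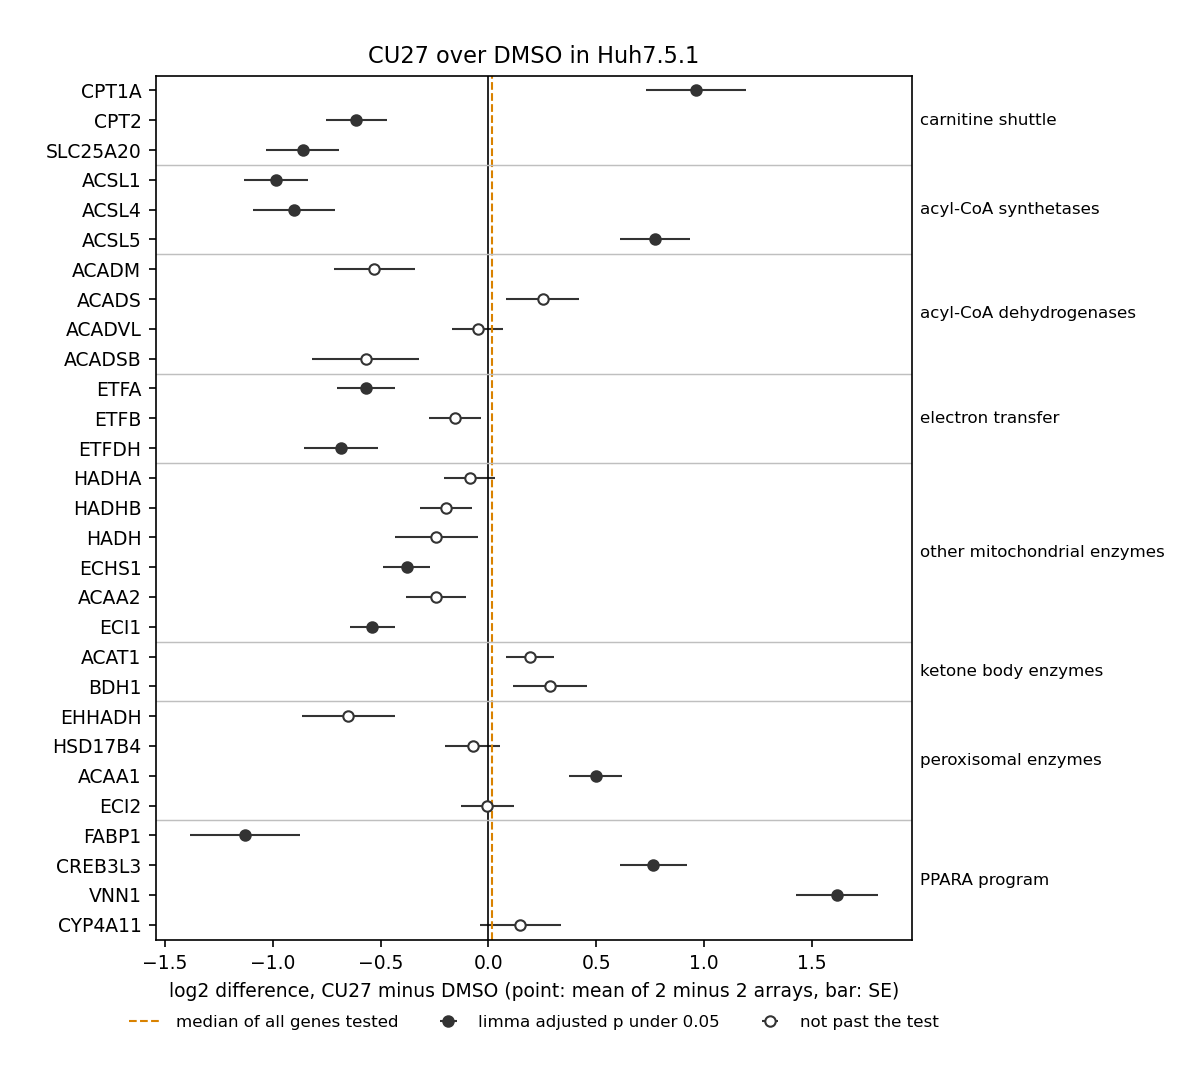
Log2 difference, CU27 minus DMSO in Huh7.5.1 (x axis), for the 29 tested genes by role (y axis), with points for means of 2 arrays minus 2 arrays and bars for the standard error. Filled points passed the limma test and the dashed line is the median of all tested genes, 0.02. Filled points lie left of 0 for 9 genes and right of it for 5.

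The carnitine shuttle split. CPT1A, the outer-membrane carnitine palmitoyltransferase that commits long-chain acyl groups to mitochondria, had 11.14 and 11.20 in Huh7.5.1 CU27 and 10.62 and 9.80 in Huh7.5.1 DMSO. Both CU27 arrays lay above both DMSO arrays, and CPT1A rose by 0.96 ± 0.23 (1.95-fold, limma adjusted p = 0.0177). CPT2, which reforms acyl-CoA on the matrix side, had 7.17 and 7.16 in CU27 against 7.79 and 7.76 in DMSO. CPT2 was lower on both CU27 arrays and its difference was -0.61 ± 0.14 (adjusted p = 0.0154). SLC25A20, the carnitine-acylcarnitine carrier of the inner membrane, had 8.63 and 8.91 in CU27 and 9.45 and 9.81 in DMSO. Its arrays did not overlap either, and the difference was -0.86 ± 0.17 (adjusted p = 0.00801). CPT1A lost its call without DMSO replicate 2 (0.55, adjusted p = 0.0822), CU27 replicate 1 (0.0518) or CU27 replicate 2 (0.0873). CPT2 lost it without CU27 replicate 2 (0.0566) or either DMSO array (0.0845 and 0.094), and SLC25A20 without DMSO replicate 2 (0.077).

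The acyl-CoA synthetases, which activate fatty acids by joining them to coenzyme A, went both ways. ACSL1, the main synthetase of oxidative tissues, had 9.13 and 9.01 in Huh7.5.1 CU27 and 10.04 and 10.06 in Huh7.5.1 DMSO. Replicates were close in both groups, and ACSL1 differed by -0.98 ± 0.15 (1.98-fold lower, limma adjusted p = 0.00285) and passed the test under all the alternatives tried. ACSL4, which prefers arachidonate, had 9.77 and 9.36 in CU27 against 10.21 and 10.73 in DMSO, a difference of -0.90 ± 0.19 (adjusted p = 0.0106). ACSL5, found on mitochondria and endoplasmic reticulum, had 8.78 and 8.54 in CU27 and 7.91 and 7.86 in DMSO. It was higher on both CU27 arrays and rose by 0.77 ± 0.16 (adjusted p = 0.0108). Without DMSO replicate 2 the adjusted p was 0.0816 for both ACSL4 and ACSL5, and it was also above the threshold without CU27 replicate 2 for ACSL4 (0.0654) and without DMSO replicate 1 for ACSL5 (0.0503).

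None of the 4 tested acyl-CoA dehydrogenases, the flavoenzymes of the first oxidation step, passed the test, and their median was -0.29. Of all tested genes 24.7% were called, and 4 genes are too few to compare shares. ACADM, for medium chains, had 10.39 and 9.87 in Huh7.5.1 CU27 against 10.61 and 10.70 in Huh7.5.1 DMSO. Both CU27 arrays were lower but lay farther apart than the DMSO arrays, and the difference was -0.53 ± 0.19 (limma adjusted p = 0.0721). All 7 ACADM probe sets were lower in CU27, at -0.75 to -0.53, and their mean passed the test as a fall (-0.65, limma adjusted p = 0.045). ACADSB, for short branched chains, had 8.05 and 7.36 in CU27 and 8.06 and 8.49 in DMSO, with a difference of -0.57 ± 0.25 (adjusted p = 0.126). ACADS, for short chains, differed by 0.25 ± 0.17 and ACADVL, for very long chains, by -0.05 ± 0.12, and neither passed. The ACADVL probe sets not used differed by -0.32, with overlapping arrays, and by -0.64, without overlap. ACADL, the long-chain enzyme, had 5.07 and 5.02 in CU27, 5.39 and 5.29 in DMSO and 5.17 on both Hep3B arrays, all below the floor, and was not tested. Both values turned on the CU27 array kept: without CU27 replicate 1 they were -0.79 (adjusted p = 0.017) for ACADM and -0.92 (adjusted p = 0.0273) for ACADSB, and without CU27 replicate 2 they were -0.27 and -0.22, not called.

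Of the electron transfer genes 2 of 3 fell, where 12.1% of all tested genes were called lower, and 3 genes are too few to compare shares. ETFA, the α subunit of electron transfer flavoprotein, had 11.75 and 11.33 in Huh7.5.1 CU27 and 12.08 and 12.13 in Huh7.5.1 DMSO. ETFDH, which hands the electrons to ubiquinone, had 7.64 and 7.57 in CU27 against 8.16 and 8.41 in DMSO. In both genes the CU27 arrays were lower without overlap, by -0.57 ± 0.13 for ETFA (limma adjusted p = 0.0164) and -0.68 ± 0.17 for ETFDH (adjusted p = 0.0204). ETFB, the β subunit, had 10.40 and 10.37 in CU27 and 10.45 and 10.62 in DMSO, and its difference of -0.15 ± 0.12 did not pass. ETFA lost its call without CU27 replicate 2 (-0.35, adjusted p = 0.0582), DMSO replicate 1 (0.0619) or DMSO replicate 2 (0.103). ETFDH lost it without CU27 replicate 2 (0.0848) or DMSO replicate 2 (0.153).

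Among the 6 other enzymes of the mitochondrial spiral, ECI1 and ECHS1 fell (33.3% called, against 24.7% of all tested genes). ECI1, an enoyl-CoA isomerase for unsaturated chains, had 10.84 and 10.71 in Huh7.5.1 CU27 against 11.27 and 11.35 in Huh7.5.1 DMSO, a gap wider than either pair, and differed by -0.54 ± 0.10 (limma adjusted p = 0.00708). ECHS1, the short-chain hydratase, had 11.02 and 10.84 in CU27 and 11.27 and 11.34 in DMSO, with a difference of -0.38 ± 0.11 (adjusted p = 0.0344). HADHA, HADHB, HADH (the hydroxyacyl-CoA dehydrogenase for shorter chains) and ACAA2 (the matrix thiolase) had differences between -0.24 and -0.09 for the probe sets used, and none passed. Other probe sets above the floor went down to -0.32 for HADHA and -0.48 for HADHB, and that of HADH was at 0.14. HADH was at -0.52 without CU27 replicate 1 and at 0.04 without CU27 replicate 2. Leaving out DMSO replicate 2 ended the call of ECI1 (0.0683) and of ECHS1 (0.186). ECHS1 also lost its call without CU27 replicate 2 (0.133), DMSO replicate 1 (0.102), Hep3B DMSO replicate 2 (0.0607) or Hep3B DMSO replicate 3 (0.061).

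Neither ketone body gene passed the test. ACAT1, the mitochondrial acetoacetyl-CoA thiolase, had 10.42 and 10.52 in Huh7.5.1 CU27 and 10.29 and 10.27 in Huh7.5.1 DMSO, with a difference of 0.19 ± 0.11 (limma adjusted p = 0.25). BDH1, which interconverts acetoacetate and hydroxybutyrate, had 4.70 and 4.64 in CU27 against 4.48 and 4.30 in DMSO, below the floor in both, so no fold is given.

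Mitochondrial and peroxisomal members were set beside each other. Of 18 tested mitochondrial members 7 were called (38.9%, against 24.7% of all tested genes). CPT1A rose, and 6 fell, CPT2, SLC25A20, ETFA, ETFDH, ECHS1 and ECI1. Each of these calls was lost without Huh7.5.1 DMSO replicate 2, so the count rests on that array. CPT1A, CPT2, ETFA, ETFDH and ECHS1 also lost theirs without CU27 replicate 2. The median log2 difference of the 18 mitochondrial members was -0.24 and 14 of 18 values were negative. Of 4 tested peroxisomal members 1 rose and 0 fell, with a median of -0.04, a share of 25% against the same 24.7%. The medians differed by -0.20, and with 4 genes on the peroxisomal side the difference is a description with no test. Leaving out single arrays kept it between -0.26 and -0.18. With ECI2 counted as mitochondrial, the medians were -0.24 for mitochondrial and -0.07 for peroxisomal members. The further lists described below did not show the gap, with medians of -0.09 for other mitochondrial and -0.10 for other peroxisomal lipid genes.

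ACAA1, the peroxisomal thiolase, was the peroxisomal member that rose. It had 11.02 and 11.05 in Huh7.5.1 CU27 against 10.42 and 10.65 in Huh7.5.1 DMSO, and both CU27 arrays were higher, by 0.50 ± 0.12 (limma adjusted p = 0.0183). All 6 of its probe sets were higher in CU27, by 0.24 to 0.59. EHHADH, the bifunctional hydratase and dehydrogenase of straight chains, had 7.27 and 6.86 in CU27 and 7.91 and 7.52 in DMSO, with a difference of -0.65 ± 0.22 that did not pass (adjusted p = 0.0563). HSD17B4, its counterpart for branched chains, differed by -0.07 ± 0.13, and ECI2, a peroxisomal isomerase that is also found in mitochondria, by -0.00 ± 0.12. ACAA1 lost its call without CU27 replicate 2 (0.0674), DMSO replicate 1 (0.126) or _x_at and _s_at probe sets (0.0639), and EHHADH passed, as a fall, without CU27 replicate 1 (0.0403), with centred arrays (0.045), with quantile normalization (0.0381) and with the replicate block (0.0267), which adds it to the 0 peroxisomal falls.

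The 4 genes of the PPARA program included the widest responses among the members, in both directions. VNN1, a pantetheinase that feeds coenzyme A turnover, had 7.29 and 7.28 in Huh7.5.1 CU27 against 5.82 and 5.51 in Huh7.5.1 DMSO. The DMSO mean was below the floor, so VNN1 was at least 2.25-fold higher (limma adjusted p = 0.00115). It was tested only because its CU27 mean reached the floor, and it passed in the 14 alternatives that tested it. With all probe sets averaged, or without _x_at and _s_at probe sets, VNN1 was below the floor and was not tested. CREB3L3, a liver transcription factor of fasting lipid metabolism, had 8.25 and 8.23 in CU27 and 7.52 and 7.42 in DMSO, and rose by 0.77 ± 0.16 (adjusted p = 0.00945). FABP1, the abundant fatty acid carrier of hepatocyte cytosol, had 11.47 and 10.57 in CU27 against 11.96 and 12.33 in DMSO. Both CU27 arrays were lower, replicate 2 more so, and FABP1 differed by -1.13 ± 0.25 (adjusted p = 0.0135). CYP4A11, a fatty acid ω-hydroxylase whose near-identical neighbour CYP4A22 may share its signal, had overlapping arrays and differed by 0.15 ± 0.19. Without DMSO replicate 2 the calls of FABP1 (0.103) and CREB3L3 (0.0796) were lost, and without CU27 replicate 2 FABP1 differed by -0.68 (adjusted p = 0.0399).

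Further genes of the pathway were read from lists of their own. Of 11 tested regulators of oxidation 4 rose and 0 fell in CU27 (36.4%, where 24.7% of all tested genes were called), with a median of 0.47. PPARG, a nuclear receptor better known from adipocytes, had 10.43 and 10.49 in Huh7.5.1 CU27 against 8.84 and 9.42 in Huh7.5.1 DMSO and rose by 1.33 ± 0.19 (limma adjusted p = 0.00214). PPARA had 8.09 and 7.87 in CU27 and 7.53 and 7.25 in DMSO, and PPARGC1A, a coactivator of mitochondrial genes, had 8.34 and 8.18 against 7.72 and 7.02. Neither overlapped between groups, and the rises were 0.58 ± 0.16 (adjusted p = 0.032) and 0.89 ± 0.26 (adjusted p = 0.0352). ESRRA, an orphan receptor of the same program named after its value was seen, was the other riser (0.48, adjusted p = 0.0416). Among these 4, PPARA lost its call without any 1 of the 6 arrays (adjusted p 0.0516 to 0.221) and ESRRA in 5 of the 6 (0.0682 to 0.252). PPARGC1A lost it without CU27 replicate 1 (0.119), CU27 replicate 2 (0.0983) or DMSO replicate 2 (0.54, adjusted p = 0.237).

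The further enzyme and peroxin lists were called at or below the 24.7% of all tested genes, so their counts show nothing particular to them. Other mitochondrial genes had 0 rises and 2 falls among 9 tested (22.2%), ACAD9, a dehydrogenase also needed for complex I assembly (-1.14 ± 0.17, limma adjusted p = 0.00239), and DECR1, a reductase for unsaturated chains (-0.72 ± 0.14, adjusted p = 0.00738). Other peroxisomal lipid genes had 0 rises and 3 falls among 13 tested (23.1%). These were PECR, an enoyl-CoA reductase (-1.41 ± 0.21, adjusted p = 0.00281), AMACR, a racemase of branched chains and bile acid intermediates (-0.85 ± 0.17, adjusted p = 0.00804), and SLC27A2, a transporter and activator of very long chains (-0.90 ± 0.21, adjusted p = 0.015). Among enzymes of peroxisomal lipid handling the called changes were thus a rise of ACAA1 and falls of these 3. Of 12 tested peroxins, which build the organelle, 1 rose (8.33%), PEX11A (0.62 ± 0.17, adjusted p = 0.027), and 0 fell. Of 3 tested further PPARA targets 1 fell, the lipid droplet coat gene PLIN2 (-0.62 ± 0.19, adjusted p = 0.0423), while PDK4, ANGPTL4 and FGF21 were below the floor in all groups. Without DMSO replicate 2, DECR1 (0.066), AMACR (0.0617), SLC27A2 (0.0727), PEX11A (0.186) and PLIN2 (0.149) lost their calls. Without CU27 replicate 2, SLC27A2 was -0.58 (0.061), PLIN2 -0.33 (0.223) and PEX11A 0.61 (0.0976). Without DMSO replicate 1 the same genes had 0.0793, 0.141 and 0.0562, without CU27 replicate 1 PEX11A had 0.062, and without either Hep3B array PLIN2 had 0.0534 and 0.0547.

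Huh7.5.1 cells were then set against Hep3B cells, both in DMSO, to see how the lines differ in these genes. This comparison shares the Huh7.5.1 DMSO arrays with the one above. Of the 29 tested members 18 were higher in Huh7.5.1 and 6 lower, where 64% of all tested genes were called, 41% higher and 22.9% lower. These counts are of the probe sets used. They hold FABP1 and VNN1 among the higher and ACADVL and CPT1A among the lower, for which no direction or fold is given. The median difference was 0.65 over the members and 0.22 over all tested genes, and 0.53 over the members with means below the floor raised to it. In 28 members the arrays of the lines did not overlap, against 84.8% of all tested genes. The scaling between the lines is not known, and array medians were 6.27 and 6.23 in Huh7.5.1 DMSO against 5.85 and 5.82 in Hep3B DMSO. With each array centred on its median, 10 members were higher and 10 lower, where 23.2% and 40.8% of all tested genes were, and the medians were 0.23 for the members and -0.22 for all genes. The difference in ACTB 3′ minus 5′ signal runs along the same split of arrays and cannot be told apart from the line. Marker genes differed too, in both directions. Of 3 tested leukocyte markers 2 were higher in Huh7.5.1, LCP1 (at least 13.8-fold) and CD79A, and 1 was lower, CD14 (at least 1.41-fold). Leukocyte markers summed to 1010 to 1390 in Huh7.5.1 DMSO, where LCP1 was the brightest, against 272 to 278 in Hep3B DMSO. Of 2 tested fibroblast markers PDGFRA was higher and LUM lower. LCP1, CD79A, CD14 and LUM were tested only through the line in which they were brighter, so a difference was built into their selection. Fibroblast markers summed to 453 to 552 in Huh7.5.1 DMSO against 229 to 296 in Hep3B DMSO. The part of either list in the differences was not tested.

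**Figure D3:**
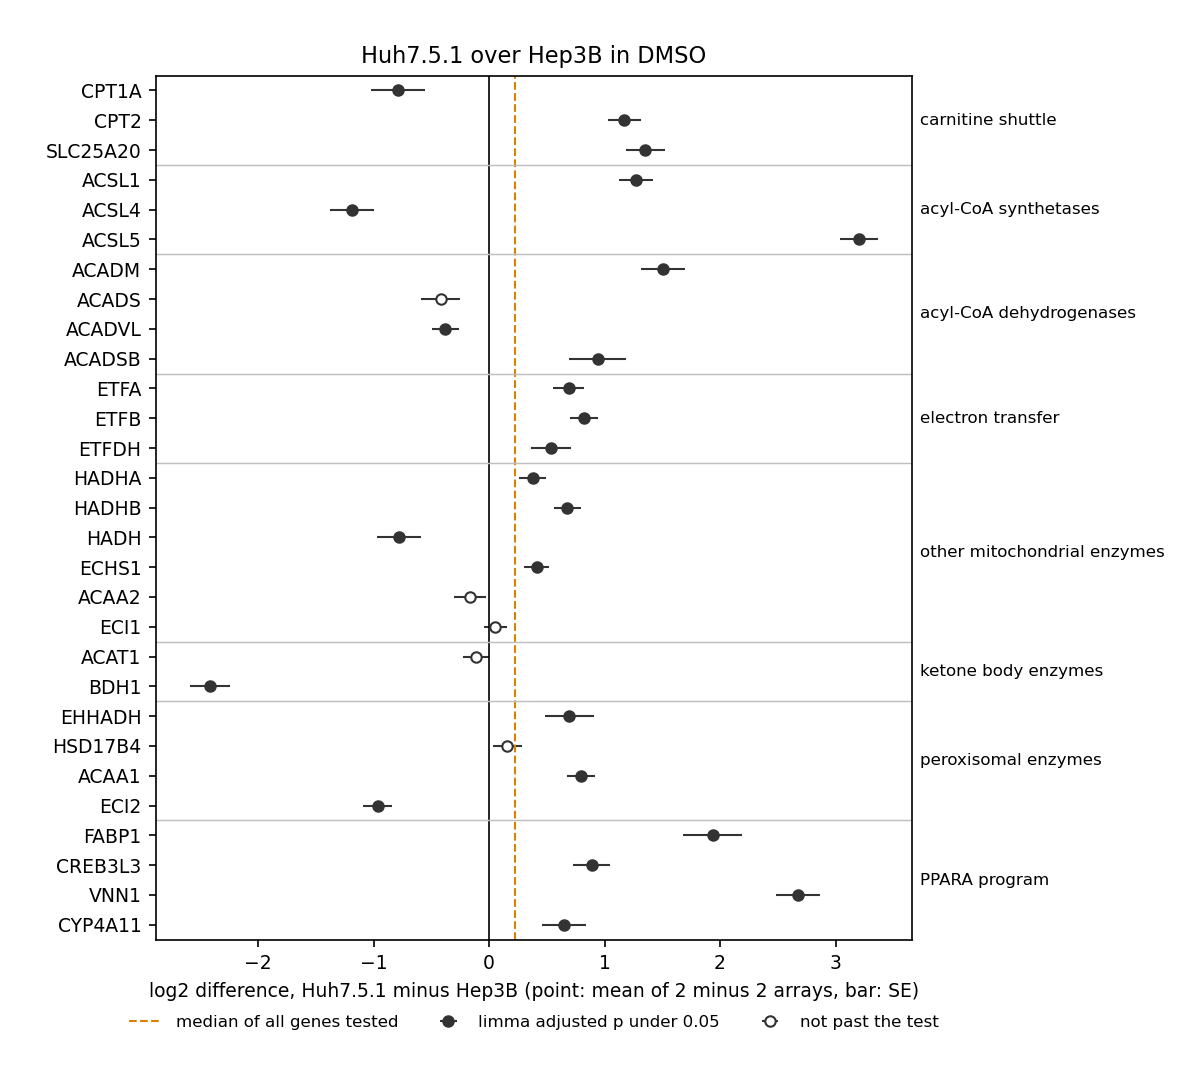
Log2 difference, Huh7.5.1 minus Hep3B in DMSO on the deposited scale (x axis), for the 29 tested genes by role (y axis), with points for means of 2 arrays minus 2 arrays and bars for the standard error. Filled points passed the limma test and the dashed line is the median of all tested genes, 0.22. Points of ACSL5 and BDH1 use 1 group below the floor and those of VNN1 both, so their places are not sizes, and filled points lie on both sides of 0.

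The acyl-CoA synthetases differed between the lines in both directions. ACSL5 had 7.91 and 7.86 in Huh7.5.1 DMSO against 4.56 and 4.81 in Hep3B DMSO, where it was below the floor, so it was at least 3.43-fold higher in Huh7.5.1 (limma adjusted p = 7.73e-07). ACSL5 was tested only through the Huh7.5.1 groups, so a difference was built into its selection. ACSL1 was higher too, with 10.04 and 10.06 against 8.62 and 8.94 (1.27 ± 0.15, adjusted p = 9.58e-05). ACSL4 ran the other way, with 10.21 and 10.73 in Huh7.5.1 and 11.59 and 11.71 in Hep3B (-1.19 ± 0.19, adjusted p = 0.000592). The directions of ACSL1 and ACSL4 also held with centred arrays, at 0.86 and -1.60, and ACSL5 was called higher there too. In the carnitine shuttle, CPT2 (1.17 ± 0.14) and SLC25A20 (1.35 ± 0.17) were higher in Huh7.5.1, with adjusted p of 0.000117 and 0.000134. The probe sets of CPT1A disagreed between the lines, so no direction is given for it. The probe set not used had 7.83 and 6.65 in Huh7.5.1 against 6.55 and 7.10 in Hep3B (0.41). The probe set used had 10.62 and 9.80 in Huh7.5.1 against 10.84 and 11.16 in Hep3B and was called lower (-0.79 ± 0.23, adjusted p = 0.0154). That call was lost without Huh7.5.1 DMSO replicate 2 (-0.38, adjusted p = 0.0905), without Hep3B DMSO replicate 3 (0.125) and as the mean of both probe sets (-0.19, adjusted p = 0.58), while without Huh7.5.1 DMSO replicate 1 the difference was -1.20.

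Of the 18 tested mitochondrial members 10 were higher in Huh7.5.1 and 4 lower, with a median of 0.40, where 41% and 22.9% of all tested genes were. With centred arrays 4 were higher and 8 lower, with a median of -0.02, close to the 23.2% and 40.8% of all tested genes, so these counts show nothing particular to mitochondrial members. ACADM had 10.61 and 10.70 in Huh7.5.1 DMSO against 9.32 and 8.98 in Hep3B DMSO, and was higher on either scale (1.50 ± 0.19 and 1.09, limma adjusted p = 0.00014 as deposited). HADH had 8.94 and 8.83 in Huh7.5.1 against 9.75 and 9.59 in Hep3B and was lower on either scale (-0.78 ± 0.19, adjusted p = 0.00621, and -1.20). ETFB was higher on both as well (0.82 ± 0.12, adjusted p = 0.000361, and 0.40). ACADSB, ETFA, ETFDH, HADHA, HADHB and ECHS1 were higher on the deposited scale, with differences of 0.38 to 0.94, and between -0.04 and 0.52 after centring, none called. With quantile normalization ETFA and HADHB kept their calls. ACAA2, ACAT1, ACADS and ECI1 were not called on the deposited scale, with differences of -0.42 to 0.05, and were lower after centring, by -0.84 to -0.36. HADH lost its call without Hep3B DMSO replicate 2 (0.0525), as did HADHA (0.062) and ECHS1 (0.0575), while leaving out Huh7.5.1 DMSO replicate 2 ended those of ACADSB (0.0733), ETFDH (0.15), HADHA (0.135) and ECHS1 (0.0616). Leaving out Hep3B DMSO replicate 3 ended those of ACADSB (0.0742), ETFDH (0.151) and HADHA (0.0882).

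ACADVL depended on the probe set. The probe set used had 10.20 and 10.35 in Huh7.5.1 DMSO against 10.63 and 10.68 in Hep3B DMSO, a difference of -0.38 ± 0.12 (limma adjusted p = 0.0193). The others had 10.00 and 9.72 against 8.11 and 8.76, and 8.66 and 8.39 against 6.05 and 6.45, so they were higher in Huh7.5.1, by 1.42 and 2.28. FABP1 showed the same kind of disagreement, with 11.96 and 12.33 in Huh7.5.1 against 10.29 and 10.13 in Hep3B for the probe set used (1.94 ± 0.25, adjusted p = 0.00018) and 11.00 and 11.44 against 11.40 and 11.24 for the other (-0.10). No direction between the lines is given for either gene. For CU27 the FABP1 probe sets ran the same way, at -1.13 and -1.19. The call of ACADVL was also lost without Huh7.5.1 DMSO replicate 1 (0.126), Hep3B DMSO replicate 2 (0.0613) or Hep3B DMSO replicate 3 (0.0958).

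Over the members, 20 had another probe set that reached the floor. In 19 of these all shared the sign of the CU27 difference, HADH being the exception, and in 15 all shared the sign between lines. The 5 exceptions between lines were CPT1A, ACADS, ACADVL, HSD17B4 and FABP1.

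**Figure D4:**
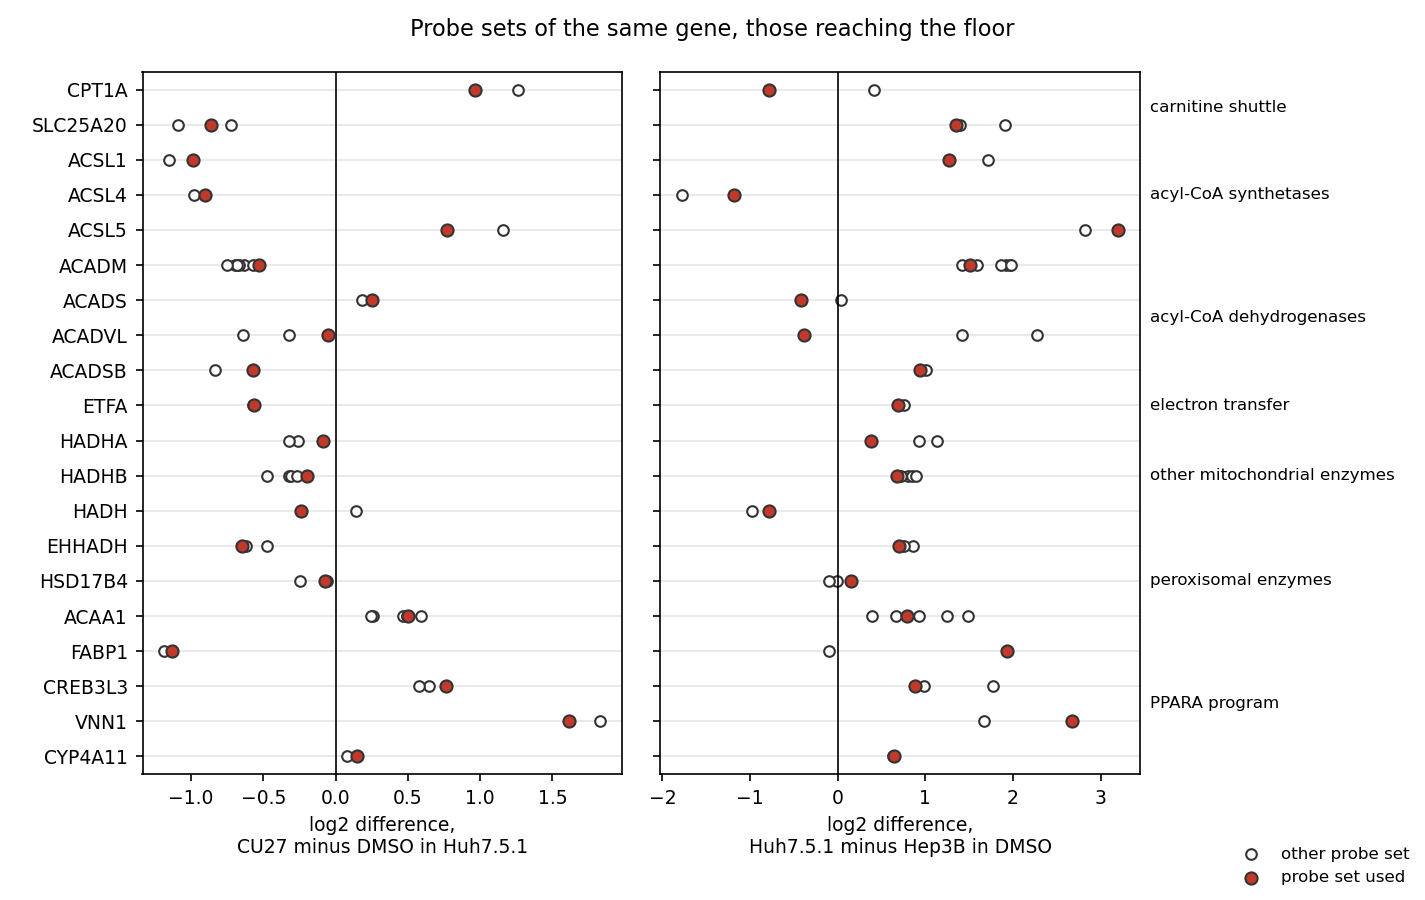
Log2 differences of every probe set that reached the floor, for the 20 genes with more than 1 such probe set (y axis), for CU27 minus DMSO in Huh7.5.1 (left, x axis) and Huh7.5.1 minus Hep3B in DMSO (right, x axis). Filled points are the probe set used and open points the others. All open points share the side of the filled point for 19 genes on the left and 15 on the right.

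Among the ketone body genes ACAT1 did not pass between the lines (-0.12 ± 0.11). BDH1 had 4.48 and 4.30 in Huh7.5.1 DMSO, below the floor, against 6.77 and 6.84 in Hep3B DMSO, and was at least 1.62-fold lower in Huh7.5.1 (limma adjusted p = 4.77e-06). BDH1 was tested only through Hep3B, so a difference was built into its selection. Among the peroxisomal enzymes ACAA1 was higher in Huh7.5.1 (10.42 and 10.65 against 9.74 and 9.75, 0.79 ± 0.12, adjusted p = 0.000449) and ECI2 lower (9.91 and 9.75 against 10.76 and 10.83, -0.97 ± 0.12, adjusted p = 0.000144). Both held with centred arrays, at 0.38 and -1.38. EHHADH was higher on the deposited scale (0.70 ± 0.22, adjusted p = 0.0191) and uncalled after centring (0.28), and HSD17B4 differed by 0.16 ± 0.13. EHHADH lost its call without Huh7.5.1 DMSO replicate 1 (0.142) or Hep3B DMSO replicate 3 (0.139).

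The median of the 18 mitochondrial members minus that of the 4 peroxisomal members was -0.03 between the lines. Counting ECI2 as mitochondrial moved it to -0.32, and leaving out single arrays moved it between -0.08 and 0.10, so no difference between the compartments is given here.

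CREB3L3 had 7.52 and 7.42 in Huh7.5.1 DMSO against 6.73 and 6.44 in Hep3B DMSO and was higher on either scale (0.89 ± 0.16, limma adjusted p = 0.00106, and 0.47 after centring). VNN1 had 5.82 and 5.51 against 3.12 and 2.86, below the floor in both lines, so no fold is given although the fit called it. CYP4A11 had 6.73 and 6.89 in Huh7.5.1 and 6.02 and 6.30 in Hep3B, a difference of 0.65 ± 0.19 (adjusted p = 0.0144) that became 0.23 after centring and was not called. Its call was also lost without Huh7.5.1 DMSO replicate 2 (0.0886) or Hep3B DMSO replicate 2 (0.0936). ACSL5, BDH1 and VNN1 reached the test only through the groups in which they were brighter, so a difference was built into their selection.

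Outside the members, OXCT1, the enzyme with which ketone bodies are used rather than made, had 7.62 and 7.55 in Huh7.5.1 DMSO against 3.09 and 2.92 in Hep3B DMSO, and was at least 2.79-fold higher. It too was tested only through the Huh7.5.1 groups, so a difference was built into its selection. Other mitochondrial genes had 4 higher and 3 lower of 9 tested, and 3 and 4 with centred arrays, where 41% and 22.9% of all tested genes were called as deposited and 23.2% and 40.8% after centring. Of 13 other peroxisomal lipid genes 5 were higher and 6 lower, and 3 and 7 with centred arrays, among them the peroxisomal oxidase ACOX3 (6.48 and 6.47 against 8.53 and 8.86, -2.22 ± 0.16, adjusted p = 6.26e-06) and the catalase gene CAT (9.10 and 9.17 against 11.17 and 11.12, -2.01 ± 0.17, adjusted p = 1.23e-05). Both stayed lower with centred arrays, at -2.64 and -2.42. Peroxins had 4 higher and 5 lower of 12 tested, and 1 and 7 of 11 with centred arrays. Regulators of oxidation had 3 and 3 of 11, and 1 and 7 with centred arrays, and further PPARA targets 2 and 0 of 3, and 2 and 1. These splits turn on the unknown scaling.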

How the data were processed

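Expression arrays were run on total RNA with 3′ in vitro transcription labelling, 1 array per culture, per the labels. The deposited values were taken as log2 signals because of their range, as no label states the scale. The submitters' processing notes name MAS5 without a version. The scaling between arrays was not given in the sources used here. No depth applies to arrays, and their number limits the precision.

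The 102 control probe sets were left out. The annotation gave 44988 probe sets 1 gene symbol, 1832 several and 2473 none, and genes were named only from the first kind. Each gene was represented by its probe set of highest mean signal. The floor was the 50th percentile of all values, 6.11. Hep3B DMSO values were identical in both columns at 1086 probe sets. The 6 arrays were fitted as 3 group means with limma 3.58.1 in R 4.3.3 (lmFit and eBayes, trend on, residual df 3, prior df 5.87). Two-sided p-values were adjusted by Benjamini-Hochberg over 11383 genes, at a threshold of 0.05, and they measure only the spread between the arrays used. That spread is pooled over the 3 groups, so the errors and p-values of both comparisons draw on the Hep3B DMSO pair. Whether that pair holds 2 measured cultures cannot be told. With only the 4 Huh7.5.1 arrays, 13 of 28 tested members were called for CU27 (46.4%, against 21.8% of all tested genes). Permuting 2 arrays against 2 exactly gives no p under 0.333, so no such test was used. If 1 group was below the floor, the fold given is the other mean over the floor. The procedure was tested on simulated data.

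All members are accounted for, and from each other list up to 3 genes past the test were named by smallest p. Members and lists were chosen with earlier results of these data known. Mitochondrial and peroxisomal members were compared by counts and medians. Replicate numbers are not known to pair cultures. The replicate 1 minus replicate 2 differences of Huh7.5.1 CU27 and of Huh7.5.1 DMSO correlated at 0.18 over genes, with 2 pairs. Alternatives were other scalings, floors, probe set rules, a threshold of 0.01, no trend, fewer arrays and a replicate block. Protein sequences were not used here.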

Additional observations from a re-analysis of the deposited data

How the results depend on the processing

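Members called for CU27 numbered 14. They numbered 5 at a threshold of 0.01, 3 to 17 when single arrays were left out, 13 with only the Huh7.5.1 arrays, and 15 with the replicate block, 5 higher and 10 lower. Of the 14 called, 2 kept their call in every alternative that tested them, ACSL1 in 16 and VNN1 in 14, and 0 changed sign. Between lines 24 were called, 18 to 25 in all alternatives tried, and 12 kept their call in every alternative that tested them. The split of 18 higher and 6 lower became 10 and 10 with centred arrays and 12 and 9 with quantile normalization. The mitochondrial minus peroxisomal median for CU27 was -0.20, -0.29 without _x_at and _s_at probe sets and -0.26 to -0.18 without single arrays. Between lines it was -0.03, 0.33 with all probe sets averaged, 0.34 without _x_at and _s_at probe sets, -0.32 with ECI2 as mitochondrial and -0.084 to 0.10 without single arrays. Uncalled CU27 values changed sign for HADH without _x_at and _s_at probe sets (0.14). They also did so without single arrays, with ranges of -0.12 to 0.023 for ACADVL, -0.52 to 0.043 for HADH, -0.21 to 0.061 for HSD17B4, -0.087 to 0.077 for ECI2 and -0.046 to 0.34 for CYP4A11. Differences between lines changed sign with centred arrays for HADHA (-0.040), ECHS1 (-0.0035), ECI1 (-0.36) and HSD17B4 (-0.26), and with quantile normalization for ECI1 (-0.082) and HSD17B4 (-0.036). Without _x_at and _s_at probe sets they did so for ACADVL (1.42), FABP1 (-0.10) and HSD17B4 (-0.0034), and with all probe sets averaged for ACADVL (1.11). The cause of these changes was not tested. With 2 arrays in each group, smaller differences could not be called, and signals below the floor of 6.11 give bounds only.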
